A study of Mus musculus with 8 samples.

Results

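The Siglec family receptors are cell surface lectins that recognise sialic acids, the sugars that cap many glycans on the body's own cells. The 6 members described here, Siglece, Siglecf, Siglecg, Siglech, Siglec1 and Cd33, were taken by name as sialic acid binding receptors of myeloid and lymphoid cells, from 35944 genes in all. The transcripts came from the buffy coat of mice, the layer of leukocytes and platelets between red cells and plasma in spun blood, after 24 weeks of PM2.5 (fine airborne particulate matter) or of PBS (control saline). There were 4 libraries for each exposure, PM2.5 replicates 9, 17, 18 and 21 as numbered by the submitters, with PBS replicates 4, 10, 12 and 16. The labels give no strain, sex, age, dose or route, and name no genetic change in either group. Whether the libraries stem from different mice is not said, so the spread that p-values rest on may be technical.

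Most Siglecs carry short tyrosine motifs in their cytoplasmic tail. Once Src family kinases phosphorylate these motifs, the phosphatases SHP-1 and SHP-2 bind there and dampen the activation of the cell. In mouse blood, Siglec-E is found on neutrophils and monocytes, CD33 on granulocytes and myeloid precursors, Siglec-F on eosinophils, Siglec-G on B cells, Siglec-H on plasmacytoid dendritic cells, and Siglec-1 (sialoadhesin, CD169) on macrophages in tissue.

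Libraries held 72081019 to 89032794 expected counts, estimated counts of reads per transcript. Haemoglobin genes took 82.4% to 88.6% of them, which left 9615115 to 12714432 counts per library for every other gene. Levels are therefore given on several scales: expected counts, CPM (counts scaled to library size) after TMM scaling (trimmed mean of M values, which aligns the bulk of genes between libraries), and FPKM (values scaled to transcript length and sequenced fragments). TMM factors were 0.638 to 1.1 with PM2.5 and 0.832 to 1.52 with PBS. The lists of leukocyte (Ptprc, Coro1a, Laptm5), platelet, B cell, T cell, neutrophil and monocyte markers each had counts in all 8 libraries, as a buffy coat should hold, though the neutrophil markers Ly6g, Cxcr1 and Stfa2l1 were at 0 in some of them, beside the haemoglobin of red cells. PM2.5 replicates 17 and 18 stood apart from the other 6 libraries in transcripts of brain genes: Camk2a had 78 and 97 counts there and at most 4 elsewhere, and Snap25 had 29 in each and at most 3 elsewhere. For the members and the lists of related genes, results are given with and without these libraries where that changes a call. Calls of marker genes rest on all 8 libraries unless stated. Over all genes, 166 calls became 8 when PM2.5 replicates 17 and 18 were left out.

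Of the 6 receptors, 5 lie on chromosome 7 (GRCm38). Siglecf (43351341 to 43359531, plus strand), Siglecg (43408204 to 43418358, plus strand), Cd33 (43524216 to 43544428, minus strand) and Siglece (43651070 to 43660161, minus strand) sit in a stretch of 308821 bases with 23 annotated genes, of which 16 are protein coding. Siglech lies apart on the same chromosome (55768178 to 55778925, plus strand), and Siglec1 is on chromosome 2 (131069220 to 131086765, minus strand). No annotated gene overlaps a member. The receptors have similar ligand binding domains, so reads could be shared between members, and how the counting treated such reads is not given in the sources used here.

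The 250 bases before a transcript start of 3 of the clustered genes are shown, from RefSeq promoters of GRCm38.p6: Siglece and Cd33, which rose with PM2.5, and Siglecf, a neighbour that did not pass the test. Each is on the gene's own strand, at chr7:43660162-43660411 (minus) for Siglece, chr7:43533172-43533421 (minus) for Cd33 and chr7:43351091-43351340 (plus) for Siglecf. The Cd33 window precedes the start of Cd33-203, which took most Cd33 counts, and lies inside the gene span given above, whose outer end is the start of the uncounted Cd33-202. Capitals mark matches, on either strand, to GAGGAA (a core bound by PU.1 and other ETS factors, which reads TTCCTC on the opposite strand), TGTGGT (bound by RUNX factors) or TTGCNNAA (bound by C/EBP factors).
Siglece: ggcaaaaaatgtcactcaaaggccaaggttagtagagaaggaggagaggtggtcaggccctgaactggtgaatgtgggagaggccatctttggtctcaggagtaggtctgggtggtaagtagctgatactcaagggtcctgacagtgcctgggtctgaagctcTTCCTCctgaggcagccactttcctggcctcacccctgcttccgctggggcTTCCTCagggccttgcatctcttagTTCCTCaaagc
Cd33: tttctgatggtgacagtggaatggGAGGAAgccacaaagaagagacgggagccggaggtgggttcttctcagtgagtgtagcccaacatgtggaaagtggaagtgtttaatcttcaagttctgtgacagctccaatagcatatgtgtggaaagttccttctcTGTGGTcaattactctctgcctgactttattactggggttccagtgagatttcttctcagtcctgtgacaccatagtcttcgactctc
Siglecf: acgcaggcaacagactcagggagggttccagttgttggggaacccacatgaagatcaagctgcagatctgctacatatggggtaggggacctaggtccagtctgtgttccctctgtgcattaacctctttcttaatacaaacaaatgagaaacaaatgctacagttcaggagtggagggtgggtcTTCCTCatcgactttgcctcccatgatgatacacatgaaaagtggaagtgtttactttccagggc
The Siglece window held 3 GAGGAA matches, all on the strand opposite to the gene, beginning 87, 36 and 11 bases before the start. The Cd33 window held 1 GAGGAA match and 1 TGTGGT match, beginning 226 and 88 bases before the start, and the Siglecf window held 1 GAGGAA match, 65 bases before it. TTGCNNAA was found in none of the 3 windows, and no match overlapped another. Over 27025 promoters searched in windows of this length, GAGGAA occurred in 23.1%, TGTGGT in 14.2% and TTGCNNAA in 9.55%. Cd33 and Siglecf shared a run of 16 bases, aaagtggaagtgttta, beginning 157 and 27 bases before their starts, while the longest run that Siglece shared with either was 8 bases. The letters are a description of these windows and name no bound factor.

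Levels of different genes were compared on the FPKM scale, which divides by transcript length. Over all 8 libraries, Siglecg had the highest mean of the members, 1.28 ± 0.553 FPKM, followed by Cd33 at 0.565 ± 0.174 and Siglece at 0.299 ± 0.181 (SD, n = 8). Siglecf followed at 0.0700 ± 0.0370 FPKM, then Siglech at 0.0213 ± 0.0189 and Siglec1 at 0.0150 ± 0.0120 (SD, n = 8). Siglecg lay above Cd33 in 7 of 8 libraries, PM2.5 replicate 17 being the exception. Cd33 lay above Siglece in 8 of 8, Siglece above Siglecf in 7 of 8 and Siglecf above Siglech in 7 of 8. Siglech lay above Siglec1 in 4 of 8, so the order of these last members was not settled at this depth. Spreads of neighbours in the order overlapped for Siglece and Cd33 in places: Siglece at its highest (0.52 FPKM) exceeded Cd33 at its lowest (0.25 FPKM).

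The comparison asked which receptors differed in the blood cells after exposure. Siglece and Cd33, receptors of neutrophils, monocytes and their precursors, were higher with PM2.5: Siglece was 3.35-fold and Cd33 1.88-fold higher after TMM scaling. Siglecg, the B cell receptor, had a log2 fold change of -0.53, and Siglecf one of -0.27, and neither passed the test. In a blood layer, more cells of a type and more RNA per cell cannot be told apart. Of the 6 members, 4 had enough counts to be tested, and 2 of these passed an adjusted p of 0.05, both higher. By the same test 0.463% of the 10361 genes tested rose, 1.14% fell and 1.60% were called in either direction. The family was chosen by name with the rise of Siglece in this TMM-scaled contrast known, so its members' values describe the contrast and are no independent support for it.

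**Figure D1:**
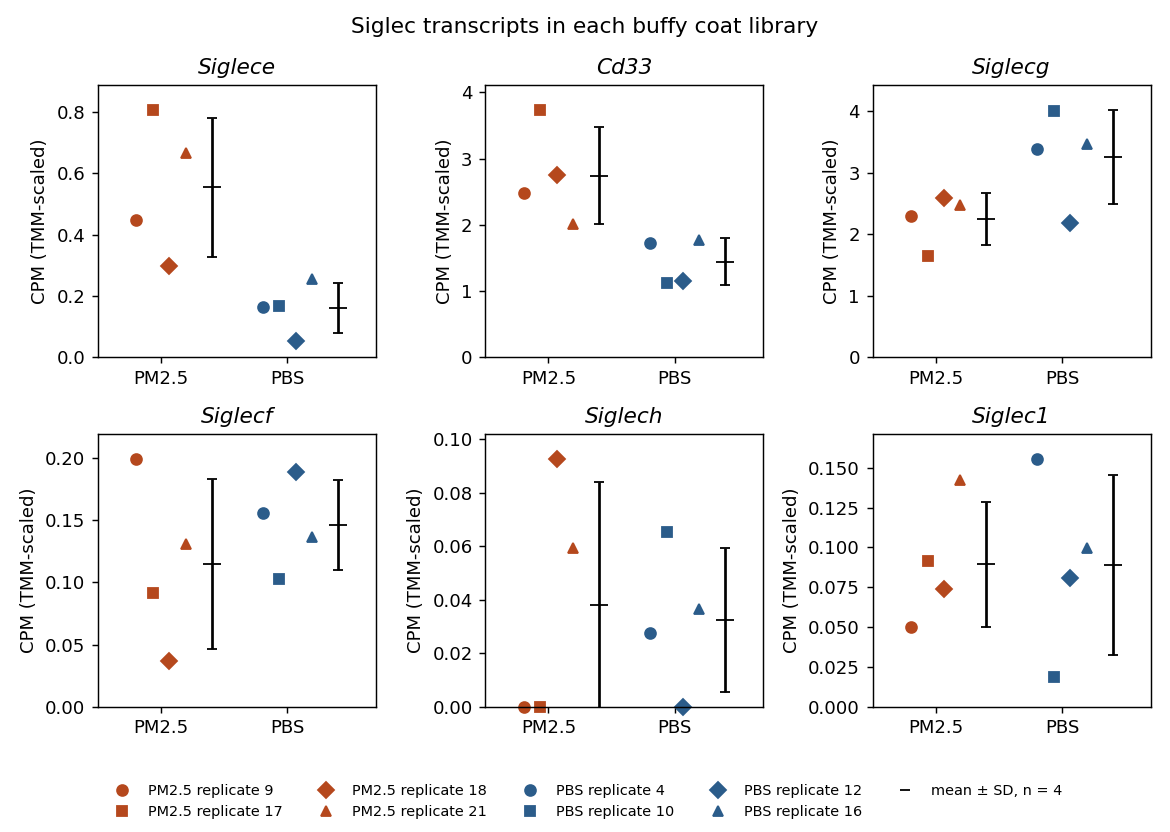
TMM-scaled CPM (vertical axes, each starting at 0) of the 6 Siglec members in each library, with PM2.5 on the left and PBS on the right; points are libraries, and the line and bar are the mean and SD (n = 4), the lower bar being cut at 0 for Siglech. For Siglece and Cd33 all 4 PM2.5 points lie above all 4 PBS points (0.296 to 0.806 against 0.0540 to 0.254 CPM for Siglece), while the groups overlap for the other 4 genes.

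Siglece encodes the inhibitory receptor of mouse neutrophils, monocytes and macrophages whose human counterpart is Siglec-9. Its expected counts were 36, 44, 16 and 56 in PM2.5 replicates 9, 17, 18 and 21, and 18, 18, 4 and 28 in PBS replicates 4, 10, 12 and 16. After TMM scaling Siglece stood at 0.448, 0.806, 0.296 and 0.665 CPM with PM2.5, and at 0.165, 0.168, 0.0540 and 0.254 CPM with PBS. All 4 PM2.5 libraries lay above all 4 PBS libraries on this scale. PM2.5 replicate 17 was the highest and PBS replicate 12, with 4 counts, the lowest. Groups that did not overlap were found for 9.66% of the genes tested, 3.02% with PM2.5 higher and 6.64% with PM2.5 lower. Means were 0.554 ± 0.226 CPM with PM2.5 and 0.160 ± 0.0821 CPM with PBS (n = 4 each, SD), a log2 fold change of 1.74 (SE 0.398, edgeR adjusted p = 0.0358).

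The separation of the Siglece groups depended on the scale. In the deposited FPKM, Siglece was 0.48, 0.52, 0.15 and 0.42 with PM2.5, and 0.16, 0.22, 0.03 and 0.41 with PBS. Here the groups overlapped, because PM2.5 replicate 18 lay below PBS replicates 4, 10 and 16. Scaled to all counts of the library, Siglece had a log2 fold change of 1.13 (edgeR adjusted p = 0.142), and scaled to all counts outside haemoglobin 1.37 (edgeR adjusted p = 0.103), while the median of all genes moved to -0.52 and -0.30. Relative to that median the change of Siglece was 1.65 and 1.67. Without PM2.5 replicates 17 and 18 the TMM-scaled log2 fold change was 1.75 (edgeR adjusted p = 0.161), and without PM2.5 replicates 9 and 21 it was 1.71 (edgeR adjusted p = 0.101). The call was also lost when any of PM2.5 replicates 17 and 21, or any of PBS replicates 4, 10 and 12, was left out, with edgeR adjusted p of 0.113, 0.0926, 0.0892, 0.135 and 0.0532 and every log2 fold change above 1.

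Cd33, the founding member of the CD33-related Siglecs and a marker of myeloid cells, had many more counts. Expected counts of Cd33 were 199.01, 204, 149 and 169.01 in PM2.5 replicates 9, 17, 18 and 21, and 189, 121, 85 and 195 in PBS replicates 4, 10, 12 and 16. After TMM scaling Cd33 stood at 2.48, 3.74, 2.76 and 2.01 CPM with PM2.5, and at 1.73, 1.13, 1.15 and 1.77 CPM with PBS. The raw counts overlapped between groups, and the TMM-scaled levels did not. PM2.5 replicate 21 lay closest to the PBS libraries. Means were 2.74 ± 0.731 CPM with PM2.5 and 1.44 ± 0.354 CPM with PBS (n = 4 each, SD), a log2 fold change of 0.91 (SE 0.211, edgeR adjusted p = 0.0383).

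The separation of the Cd33 groups depended on the scale as well. Deposited FPKM of Cd33 were 0.82, 0.56, 0.57 and 0.49 with PM2.5 and 0.71, 0.46, 0.25 and 0.66 with PBS, so that the groups overlapped. With library totals the log2 fold change of Cd33 was 0.27 (edgeR adjusted p = 0.600), and with haemoglobin removed 0.53 (edgeR adjusted p = 0.264); relative to the median of all genes it was 0.79 and 0.83. Without PM2.5 replicates 17 and 18 it was 0.63 (edgeR adjusted p = 0.363), and without PM2.5 replicates 9 and 21 it was 1.13 (edgeR adjusted p = 0.0279). Leaving out singly PM2.5 replicates 9, 17 and 18, then PBS replicates 4, 10 and 12, gave edgeR adjusted p of 0.0515, 0.116, 0.0894, 0.0618, 0.179 and 0.0712. Whether Siglece changed more than Cd33 was not tested.

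**Figure D2:**
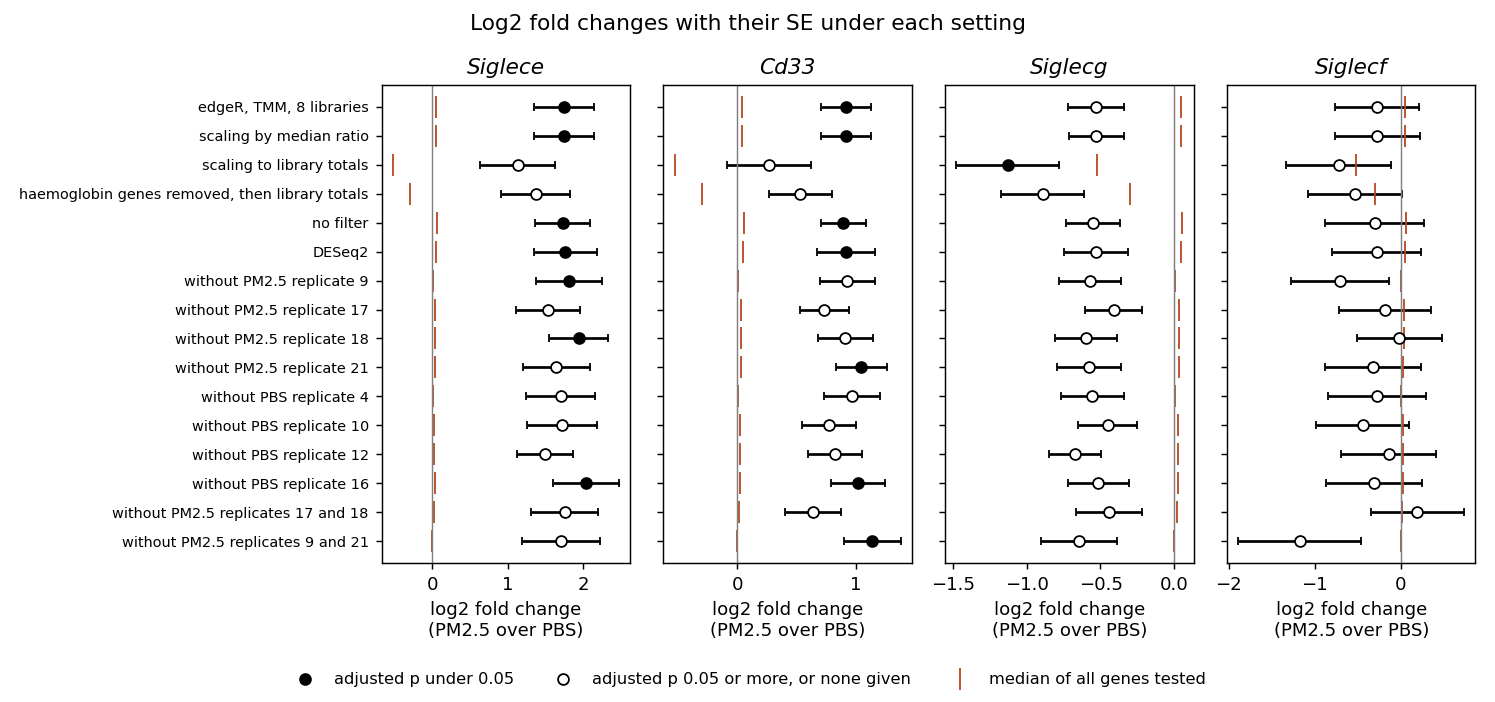
Log2 fold change, PM2.5 over PBS (horizontal axis), of the 4 tested members under each edgeR and DESeq2 setting (rows), with bars for the SE, filled points for adjusted p under 0.05 and orange ticks for the median of all genes tested. Siglece stays between 1.13 and 2.04 and Cd33 between 0.27 and 1.13, Siglecg stays below 0, and Siglecf has no filled point and changes sign without PM2.5 replicates 17 and 18.

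Siglecg restrains signalling of the B cell receptor and is the counterpart of human Siglec-10. Its expected counts were 185, 90, 140 and 209 in PM2.5 replicates 9, 17, 18 and 21, and 370, 429, 162 and 380.99 in PBS replicates 4, 10, 12 and 16. TMM-scaled levels were 2.30, 1.65, 2.59 and 2.48 CPM with PM2.5, and 3.38, 4.0, 2.19 and 3.46 CPM with PBS. PBS replicates 4, 10 and 16 lay above every PM2.5 library, and PBS replicate 12 lay among them. Means were 2.26 ± 0.422 CPM with PM2.5 and 3.26 ± 0.765 CPM with PBS (n = 4 each, SD), a log2 fold change of -0.53 (SE 0.192, edgeR adjusted p = 0.169). Scaled to library totals, Siglecg passed the test with a log2 fold change of -1.13 (edgeR adjusted p = 0.0460), which is -0.60 relative to the median of all genes.

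Siglecf, the eosinophil receptor, was close to its limit of detection. It had 16, 5, 2 and 11 expected counts in PM2.5 replicates 9, 17, 18 and 21, and 17, 11, 14 and 15 in PBS replicates 4, 10, 12 and 16. The low values of the PM2.5 group were those of replicates 17 and 18, and the groups overlapped. TMM-scaled means were 0.115 ± 0.0682 CPM with PM2.5 and 0.146 ± 0.0361 CPM with PBS (n = 4 each, SD; log2 fold change -0.27, SE 0.489, edgeR adjusted p = 0.796). Without PM2.5 replicates 17 and 18 the log2 fold change turned to 0.19 (edgeR adjusted p = 0.931). The eosinophil markers were uneven: Epx, Ear1 and Ear6, which encode granule proteins, had 0 counts in all 8 libraries, and Prg2, the granule major basic protein, had 12 counts over all of them. The other markers with enough counts to test were Ear2, the eotaxin receptor Ccr3, the interleukin 5 receptor chain Il5ra and the lipoxygenase Alox15, with 303, 208, 210 and 1061 counts over the 8 libraries. Their log2 fold changes of 0.50, 0.65, -0.83 and -1.44 did not pass the test (edgeR adjusted p = 0.475, 0.397, 0.251 and 0.221). The summed FPKM of the 9 eosinophil markers was 0.830 to 2.79 with PM2.5 and 1.05 to 3.98 with PBS.

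Siglech and Siglec1 did not reach the count filter and were not tested with it. Without the filter their log2 fold changes were 0.15 (SE 1.16, edgeR adjusted p = 0.956) and 0.00 (SE 0.691, edgeR adjusted p = 0.999). Siglech, which signals through the adaptor DAP12 (Tyrobp), had 0, 0, 5 and 5 counts in PM2.5 replicates 9, 17, 18 and 21, and 3, 7, 0 and 4 in PBS replicates 4, 10, 12 and 16. Its reads were thus found in 5 of 8 libraries, 24 counts in all. Siglec1, a large adhesion receptor of macrophages without an inhibitory motif, had 4, 5, 4 and 12 counts in those PM2.5 libraries and 17, 2, 6 and 11 in the PBS libraries, 61 in all. At this depth 3 counts, the limit that a count of 0 allows, correspond to 0.0273 to 0.0555 TMM-scaled CPM per library, for counting error only, and no difference of either gene between the groups was detectable. Of the markers that should accompany Siglech, Cox6a2 was 0 in all 8 libraries, and Klk1, Cd300c and Lag3 had 8, 5 and 10 counts. Ccr9, Pacsin1 and Runx2 had 152, 164 and 486 counts over the 8 libraries. Irf8, Spib and Tcf4, which B cells also use, held most of the list. For Siglec1, the complement genes C1qa, C1qb and C1qc, typical of tissue macrophages, were uneven within the PBS group: C1qb had 113, 0, 43 and 133 counts in PBS replicates 4, 10, 12 and 16, against 0, 2, 3 and 13 in PM2.5 replicates 9, 17, 18 and 21. All 3 complement genes were highest in PBS replicate 16, whereas the highest Siglec1 count was in PBS replicate 4. Of 10 tissue macrophage markers 6 were tested, and none passed. Adgre1 held 55.4% of the list counts (70 to 311 per library) and had a log2 fold change of -0.20 (edgeR adjusted p = 0.676). The log2 fold changes of C1qb, Cd5l, C1qa, C1qc and Mrc1 were -3.42, -3.09, -1.94, -1.33 and 0.08. Their edgeR adjusted p were 0.0588, 0.0522, 0.204, 0.411 and 0.958.

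Ratios of counts within a library need no scaling between libraries. Cd33 had 1.08, 2.27, 1.06 and 0.809 counts per Siglecg count in PM2.5 replicates 9, 17, 18 and 21, against 0.511, 0.282, 0.525 and 0.512 in PBS replicates 4, 10, 12 and 16. Every PM2.5 library thus held more Cd33 relative to Siglecg than any PBS library, with PM2.5 replicate 17 the highest. Siglece had 0.195, 0.489, 0.114 and 0.268 counts per Siglecg count with PM2.5 and 0.0486, 0.0420, 0.0247 and 0.0735 with PBS, again without overlap. Siglece per Cd33 count was 0.209 ± 0.0933 with PM2.5 and 0.109 ± 0.0476 with PBS (n = 4 each, SD), and these groups overlapped. A ratio shows that its 2 genes differed unequally and does not say which of them moved.

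**Figure D3:**
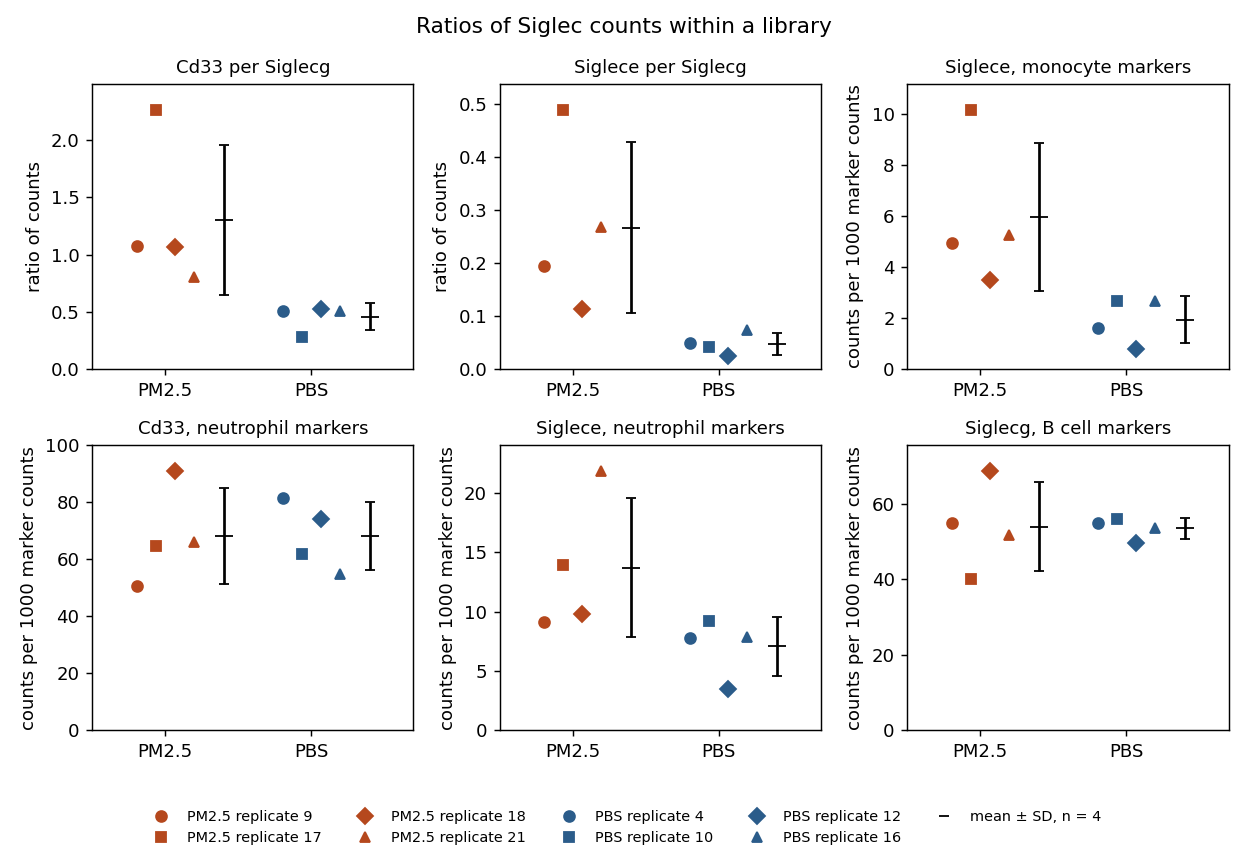
Ratios of counts within each library (vertical axes, in counts per Siglecg count or per 1000 counts of a marker list), with PM2.5 on the left and PBS on the right; points are libraries, and the line and bar are the mean and SD (n = 4). Cd33 and Siglece per Siglecg count and Siglece per 1000 monocyte marker counts separate the groups, while Cd33 per 1000 neutrophil marker counts (68.1 in both groups) does not.

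Some markers of the cells that carry Siglec-E and CD33 rose in the same comparison. Of 9 neutrophil markers tested of the 12 listed, 5 rose (S100a8, Mmp8, Mmp9, Cxcr2 and Lcn2). Of 11 monocyte markers tested 3 rose (Ccr2, Ms4a6c and Vcan), beside 0.463% of all genes tested. The neutrophil marker Il1r2 had a log2 fold change of -0.78, and the monocyte markers Fn1, Ace and Adgre4 had -0.57, -0.09 and -0.10. These did not pass the test (edgeR adjusted p = 0.198, 0.442, 0.792 and 0.812). Without PM2.5 replicates 17 and 18, only 5 of all 11137 genes tested were called higher. Among the markers, Cxcr2 lost its call there (edgeR adjusted p = 0.307) and Ccr2 kept it (edgeR adjusted p = 0.0160). The other markers that rose are not reported for that setting, and not all of them can have kept their calls. The summed FPKM of the lists, which unlike the calls above is not TMM-scaled, overlapped between groups. Neutrophil markers were 46.3 to 151 with PM2.5 and 32.0 to 98.6 with PBS (exact permutation p = 0.371, two-sided). Monocyte markers were 18.9 to 46.0 with PM2.5 and 20.3 to 50.7 with PBS (exact permutation p = 0.543). Neither passed adjustment over 14 lists (adjusted p from these permutation tests, 0.650 and 0.727). Per 1000 neutrophil marker counts, Cd33 had 68.1 ± 16.8 counts with PM2.5 and 68.1 ± 12 with PBS, and Siglece 13.7 ± 5.85 with PM2.5 and 7.08 ± 2.48 with PBS (n = 4 each, SD); both overlapped between groups. Per 1000 monocyte marker counts, Siglece had 5.98 ± 2.90 counts with PM2.5 and 1.95 ± 0.909 with PBS, without overlap, while Cd33 had 30.8 ± 13 with PM2.5 and 17.7 ± 0.777 with PBS, with overlap (SD, n = 4 each). F13a1 held 31.2% and Fn1 23.2% of the monocyte list counts, so the ratios to that list rest largely on both. Their log2 fold changes were 0.58 and -0.57 (edgeR adjusted p = 0.218 and 0.442). S100a8 held 27.1% and Csf3r 25.9% of the neutrophil list counts, so the ratios to the neutrophil list rest largely on these genes. The log2 fold changes of S100a8 and Csf3r were 1.19 and 0.89 (edgeR adjusted p = 0.0264 and 0.0613). Csf3r is also among the genes most like Cd33 in pattern, given below. The part of these marker changes in the rise of Siglece and Cd33 was not tested.

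Per 1000 counts of the leukocyte genes Ptprc, Coro1a and Laptm5, Siglece had 4.39 ± 1.88 counts with PM2.5 and 1.31 ± 0.713 with PBS, and Cd33 21.8 ± 6.36 with PM2.5 and 11.8 ± 2.98 with PBS (n = 4 each, SD). Neither ratio overlapped between the groups. Siglecg on the same measure was 17.8 ± 3.50 with PM2.5 and 26.5 ± 5.64 with PBS (n = 4 each, SD), with overlap. The B cell markers that accompany Siglecg summed to 12.3 to 24.1 FPKM with PM2.5 and 18.4 to 51.8 FPKM with PBS, without TMM scaling (exact permutation p = 0.0857, adjusted over 14 lists p = 0.400). After TMM scaling 3 of 10 tested fell (Ebf1, Blk and Bank1), beside 1.14% of all genes tested. Without PM2.5 replicates 17 and 18 these calls were lost, with edgeR adjusted p of 0.130, 0.155 and 0.371. Per 1000 B cell marker counts Siglecg had 53.9 ± 11.8 counts with PM2.5 and 53.5 ± 2.74 with PBS (n = 4 each, SD), nearly the same mean.

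Transcript models of the members differed in what they held. Siglece-201, the longer of its 2 annotated coding transcripts, took 87.2% of all Siglece counts. Siglecg counts were split between the coding Siglecg-201 (46.0%) and Siglecg-206 (47.6%), an annotated transcript that retains an intron. Most Cd33 counts went to Cd33-203 (73.0%), then to the intron-retaining Cd33-204 (17.9%), and Cd33-202, which starts upstream of the window shown above, had 0. Siglech counts went mainly to Siglech-204 (66.7%), annotated as a target of nonsense-mediated decay, and Siglec1 counts to Siglec1-201 (83.8%). Intron-retaining transcripts made up 49.6% ± 10.4 of Siglecg counts with PM2.5 and 54.1% ± 6.57 with PBS (n = 4 each, SD), with an exact two-sided permutation p of 0.514. Cd33-203 took 72.7% ± 11.2 of Cd33 counts with PM2.5 and 73.1% ± 3.40 with PBS (n = 4 each, SD), with an exact permutation p of 0.971. Of 5 such shares compared, none passed, with adjusted p of 0.857 to 0.971 from exact permutation tests that could not go below 0.0286 before adjustment. The split of reads between transcripts is an estimate of the authors' counting.

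The genes that lie between Siglecf and Siglece on chromosome 7 mostly fell below the count filter. Of the 23 annotated in that stretch 7 were tested, the 4 members and Nkg7, Etfb and Zfp719. Nkg7, a protein of cytotoxic granules, had a log2 fold change of 0.44 (SE 0.228, edgeR adjusted p = 0.308), Etfb, a mitochondrial electron carrier, 0.19 (SE 0.304, edgeR adjusted p = 0.765) and Zfp719, a zinc finger gene, 0.45 (SE 0.503, edgeR adjusted p = 0.658). None of these 3 passed the test, and Siglece and Cd33 were the only tested genes of this stretch that did.

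Other Siglecs of the mouse were followed beside the members. Cd22, the second B cell Siglec, had 3.52, 5.02, 3.13 and 4.23 TMM-scaled CPM in PM2.5 replicates 9, 17, 18 and 21, and 4.68, 5.51, 2.93 and 5.96 in PBS replicates 4, 10, 12 and 16. The groups overlapped, and the log2 fold change was -0.27 (SE 0.206, edgeR adjusted p = 0.497). Mag, the Siglec of myelin, had 1, 2, 2 and 3 counts in the PM2.5 libraries and 0 in each PBS library, all at or under the limit of 3 counts, and Siglec15 was 0 in all 8.

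Of the 12 signalling partners of Siglecs, all tested, 1 rose and 0 fell. Their median log2 fold change was 0.36 with 10 of 12 above 0, beside a median of 0.04 and 5632 of 10361 above 0 over all genes tested. The gene that rose was Socs3, a feedback inhibitor of cytokine receptors that in human cells also binds phosphorylated CD33. Socs3 had 8.05, 6.56, 4.44 and 5.38 TMM-scaled CPM in PM2.5 replicates 9, 17, 18 and 21, and 1.36, 2.27, 3.29 and 2.95 in PBS replicates 4, 10, 12 and 16, a log2 fold change of 1.31 (SE 0.237, edgeR adjusted p = 0.0118). The groups did not overlap. Without PM2.5 replicates 17 and 18 the log2 fold change of Socs3 was 1.46 (edgeR adjusted p = 0.0642), without PBS replicate 10 it was 1.24 (edgeR adjusted p = 0.0714), and scaled to library totals it was 0.86 (edgeR adjusted p = 0.101). Of 17 alternatives, 7 lost the call. The others were haemoglobin removal (1.02, edgeR adjusted p = 0.0546), leaving out PM2.5 replicates 9 and 21 (1.13, edgeR adjusted p = 0.0542), and limma on log2(FPKM + 1) and log2(FPKM + 0.1), with 0.48 and 0.70 (limma adjusted p = 0.286 and 0.293).

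The phosphatases that the inhibitory motifs recruit had log2 fold changes of 0.25 for Ptpn6, which encodes SHP-1, and 0.30 for Ptpn11, which encodes SHP-2 (edgeR adjusted p = 0.407 and 0.467). Tyrobp, the DAP12 adaptor used by Siglec-H, had 0.37 (edgeR adjusted p = 0.365). The kinases Fgr and Syk were named after their values were seen. Fgr, a myeloid Src family kinase, had a log2 fold change of 0.77 (edgeR adjusted p = 0.0649). Syk, the kinase downstream of DAP12 and of the B cell receptor, had -0.57 (edgeR adjusted p = 0.109): 22.9, 19.3, 20.7 and 20.8 TMM-scaled CPM with PM2.5 and 32.4, 35.4, 28.4 and 27.7 with PBS, without overlap.

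Genes that make the sialic acid ligands held no call. Of 13 sialyltransferases tested of 20 listed, 0 rose and 0 fell, with a median log2 fold change of 0.02. The nearest to the threshold were St3gal4 at 0.87 (SE 0.221, edgeR adjusted p = 0.0548) and St3gal6 at 0.78 (SE 0.222, edgeR adjusted p = 0.0888), which attach sialic acid in the alpha-2,3 linkage, on leukocytes also for selectin ligands. St3gal4 had 1.66, 1.39, 1.04 and 1.51 TMM-scaled CPM in PM2.5 replicates 9, 17, 18 and 21, and 0.805, 0.895, 0.864 and 0.509 in PBS replicates 4, 10, 12 and 16. Its groups did not overlap, which held for 9.66% of all genes tested in either direction. Those of St6galnac4 did not overlap either, with PM2.5 lower (log2 fold change -0.65, SE 0.256, edgeR adjusted p = 0.203). Of 6 sialic acid synthesis genes tested of 9, none passed, and the smallest p-values were those of Slc17a5, the lysosomal sialic acid exporter (log2 fold change 0.80, edgeR adjusted p = 0.329), and Cmas, which activates sialic acid (0.38, edgeR adjusted p = 0.380). Neu1, the lysosomal sialidase and the only 1 of 4 sialidases tested, had -0.46 (edgeR adjusted p = 0.278).

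Among 7 tested carriers of sialylated ligands of 8 listed, none passed, and the median log2 fold change was 0.06. Selplg, the selectin ligand PSGL-1, had 0.42 (edgeR adjusted p = 0.221) and Itgb2, the beta-2 integrin chain, 0.35 (edgeR adjusted p = 0.313). Cd24a, whose glycans are known ligands of Siglec-G, had a mean of 1285 ± 262 TMM-scaled CPM with PM2.5 and 950.1 ± 223 with PBS (n = 4 each, SD; log2 fold change 0.44, edgeR adjusted p = 0.381). Over the 6 lists, 40 of 56 genes were tested, 1 rose and 0 fell, and 27 of the 40 log2 fold changes were above 0, beside 5632 of 10361 over all genes tested.

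**Figure D4:**
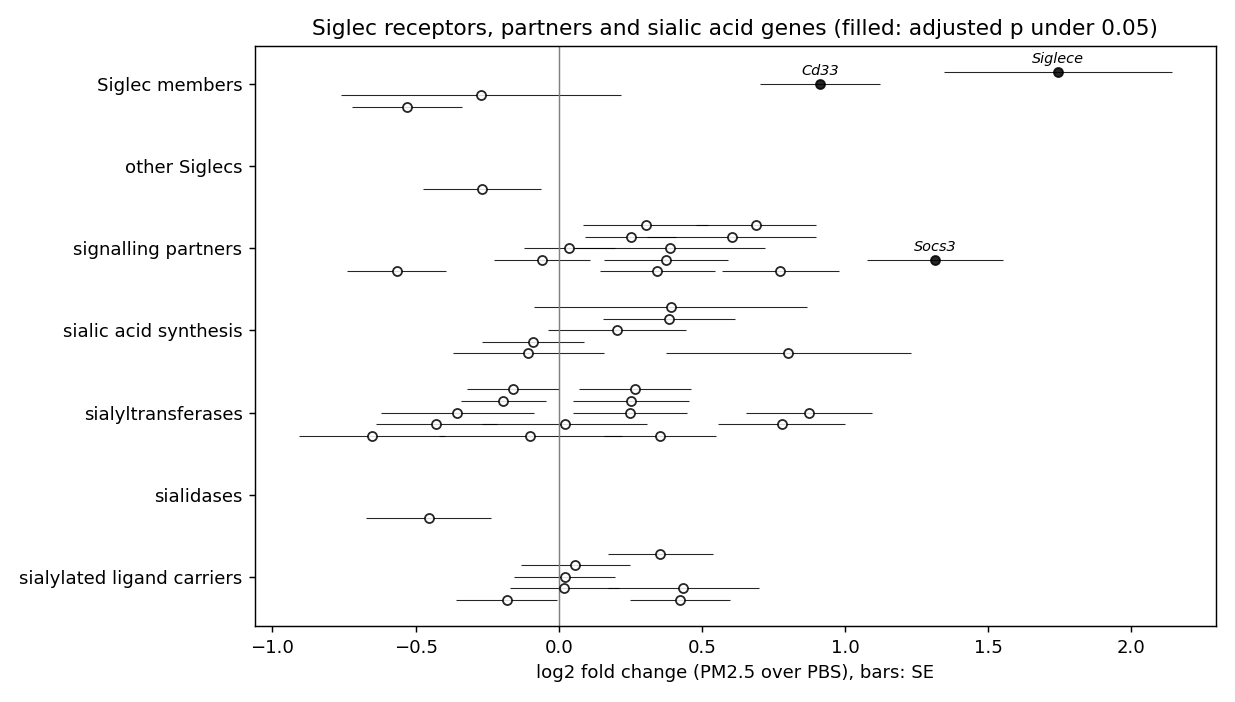
Log2 fold change, PM2.5 over PBS (horizontal axis, bars are the SE), of each tested gene of the Siglec members and of the 6 lists of related genes (rows); filled points have an edgeR adjusted p under 0.05. Siglece, Cd33 and Socs3 are filled, the signalling partners lie mostly right of 0 (median 0.36), and the sialyltransferases lie on both sides (median 0.02).

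Genes whose pattern over the 8 libraries was most like that of each tested member were ranked by Pearson's r of log2(CPM + 0.05), among 5030 or 5031 tested genes at 1 CPM or more. The libraries share scaling and cell makeup, so the r values only describe likeness, and the r of deviations from the group means is given after each. For Siglece these were Myo1f, a myosin of leukocytes (0.96, then 0.88), Mpeg1, the pore-forming perforin-2 of phagocytes (0.96, then 0.93), Pygl (0.96, then 0.88), Hist2h4 (0.95, then 0.95) and Atp6v1b2, a proton pump subunit (0.95, then 0.87). For Cd33 they were Cox14 (0.97, then 0.90), Ccpg1 (0.95, then 0.86), Csf3r, the receptor for granulocyte colony-stimulating factor (0.95, then 0.88), and Fgl2 (0.95, then 0.94). For Siglecg they were Pnisr (0.96, then 0.93), Myo5a (0.95, then 0.94), Rad23b (0.95, then 0.92), Cr2, the complement receptor of B cells (0.95, then 0.91), and Rere (0.94, then 0.91). For the sparsely counted Siglecf, Pik3c2a came first (0.90, then 0.91), followed by Nampt, Atp13a3, Pafah1b2 and Kpna3 (0.88 to 0.86). Siglece and Cd33 had an r of 0.82 with each other (then 0.45). For Siglece with Cd22, the B cell Siglec that is no member, r was 0.25 (then 0.96). The remaining pairs of members were at -0.63 for Cd33 with Siglecg (then -0.20), -0.45 for Siglece with Siglecg (then 0.21), -0.42 for Cd33 with Siglecf (then -0.22), -0.27 for Siglece with Siglecf (then 0.06) and 0.01 for Siglecf with Siglecg (then -0.34).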

How the data were processed

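Random-primed, strand-marked libraries of total RNA were sequenced, per the labels' protocols. Tools used include HISAT2 2.0.1, cutadapt 1.9.1 and bcl2fastq 2.17.1.14, with the build GRCm38, per the submitters' processing notes. For the counting tool and its strand setting, a statement is not given in the sources used here. The authors deposited expected counts (estimated counts, not normalized, of which 24.5% were not whole) and FPKM (fragments relative to transcript length and library depth, made by the authors, per the file headers) for 118783 transcripts.

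Of these, 116710 transcripts had their identifier in GENCODE M21, and their values were added up over 35944 genes. The 2073 unmatched transcripts, 0.0266% to 0.0532% of each library, were left out. After rounding, the gene counts went into edgeR 4.0.16 (R 4.3.3): filterByExpr (minimum count 10, minimum total 15), TMM, a two-sided quasi-likelihood test and Benjamini-Hochberg adjustment over all genes tested, with a threshold of 0.05. Each SE is the absolute log2 fold change divided by the root of its F statistic. List sums and transcript shares were compared by exact permutation tests (70 arrangements, smallest two-sided p 0.0286). Gene FPKM is the sum over its transcripts. The procedure was tested on simulated data.

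The members, gene lists, marker lists and tests were chosen with earlier results of these data known. Named were all members, in each list every gene past the threshold or else the 2 with the smallest p, any gene needed to say what a list holds, and the 5 genes most like each tested member, without predicted genes, RIKEN clones, antigen receptor segments and olfactory receptors. Some genes that this rule selects are not reported here. Alternatives were median-ratio scaling, library totals, haemoglobin removal, no filter, DESeq2 1.42.0, limma 3.58.1 with a trend on log2(FPKM + 1) and on log2(FPKM + 0.1) for genes at 1 FPKM in 4 libraries, and each library left out. Leaving out PM2.5 replicates 17 and 18 together was planned, and leaving out 9 and 21 was added after seeing the data.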

Additional observations from a re-analysis of the deposited data

Results flagged for a closer look

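In each group of 4 libraries, the gap of the highest or lowest library to its nearest neighbour was set against the range of the group, for 94 such groups, and 5 stood out at a level that chance reaches in about 5% of groups. The share of groups that stood out was thus near the share that chance reaches. Siglec1 was 0.02 FPKM in PM2.5 replicate 21 and 0.01 in the other 3 PM2.5 libraries, a step of the rounding in the deposited values. Cd33 had 0.282 counts per Siglecg count in PBS replicate 10, below the other PBS libraries at 0.511 to 0.525. Siglecg had 0.581 counts per Cd22 count in PBS replicate 16, against 0.723 to 0.747 in the other PBS libraries. Cd22 had 122 counts per 1000 B cell marker counts in PM2.5 replicate 17, against 83.0 to 88.3 in the other PM2.5 libraries. The natural killer marker list summed to 1.97 FPKM in PM2.5 replicate 18, against 3.77 to 3.90 in the other PM2.5 libraries.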

How the results depend on the processing

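Siglece was higher with PM2.5 under all 15 alternatives that could test it, with log2 fold changes of 1.13 to 2.04 and edgeR or DESeq2 adjusted p of 0.000291 to 0.161, and it lost its call under 9. Cd33 was higher under all 15 (0.27 to 1.13, adjusted p 0.000372 to 0.600 by edgeR or DESeq2) and lost its call under 9. Siglecg was below 0 under all 17 (-1.13 to -0.41), and Siglecf reversed to 0.19 without PM2.5 replicates 17 and 18. The 2 member calls, Siglece and Cd33, became 1 with library totals (Siglecg, lower, with both others lost), 0 with haemoglobin removed (2 members at unadjusted p under 0.05 by edgeR), 0 with limma under either pseudocount (only Siglecg could be tested, with unadjusted p under 0.05), 0 without PM2.5 replicates 17 and 18 (2 members at unadjusted p under 0.05 by edgeR; DESeq2 on all libraries called 2), 1 without PM2.5 replicates 9 and 21, and 0 to 2 without a single library. Over all genes, 166 calls became 483 with library totals, 624 without a filter, 373 with DESeq2, 0 with limma (716 genes at unadjusted p under 0.05 with pseudocount 1, 695 with 0.1), 8 without PM2.5 replicates 17 and 18, 189 without PM2.5 replicates 9 and 21, and 31 to 192 without a single library. Of the 166 main calls 48 were higher and 118 lower; library totals gave 8 higher and 475 lower, and haemoglobin removal 10 higher and 216 lower. The 1 call in the lists of related genes became 5 without a filter, 4 with DESeq2, 0 with limma (4 genes at unadjusted p under 0.05), 0 without PM2.5 replicates 17 and 18 (8 at unadjusted p under 0.05 by edgeR), and 0 to 2 without a single library. The cause of these changes was not tested. Haemoglobin reads limit the depth of every Siglec gene. No paired analysis was possible because the groups share no replicate number.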
